A study of Mus musculus with 5480 samples.

Results

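A set of 10 genes of the Notch pathway was followed through the connective tissue of the developing mouse lung: the receptors Notch1, Notch2 and Notch3, the ligands Jag1 and Jag2, and the target genes Hes1, Hey1, Hey2, Heyl and Nrarp. The 10 genes were chosen by name, and all 10 were rows of the deposited table, which held 18072 genes. The table gives read counts of 5480 single mesenchymal cells sorted from distal lung, processed in plates, with libraries made by Tn5, a transposase that cuts DNA while attaching adapters. Of these cells, 71 came from sorts labelled CD31 or CD45, and the rest from the sort labelled mesenchymal. The cells came from 10 mice, 1 female and 1 male in each of 5 groups: E18.5, which is embryonic day 18.5, the postnatal days P1, P7 and P21, all in normal air, and P7 with hyperoxia, which is raised oxygen. The oxygen level, the length of exposure and the strain are not given in the sources used here. The authors had labelled 16 cell subtypes. Early and later subtypes of 1 kind were joined, and 6 classes were compared: alveolar fibroblasts, adventitial fibroblasts of the outer vessel and airway coat, myofibroblasts, airway smooth muscle, vascular smooth muscle and pericytes, the cells that wrap capillaries. Vascular smooth muscle and pericytes are together called mural cells.

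Notch receptors sit in the cell membrane and are switched on by Jagged or Delta-like ligands on a touching cell. Proteases then release the receptor's inner domain, which enters the nucleus, joins the DNA-binding protein RBPJ and Mastermind-like proteins, and turns on genes of the Hes and Hey families of transcriptional repressors, and Nrarp, which dampens the signal. In vessel walls, Notch3 is the receptor best known from mural cells, and Jagged1 from endothelium and smooth muscle is a ligand of it.

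RefSeq promoter windows of GRCm38.p6, each holding 250 bases before the gene's start and 50 after it, were at hand for 7 of the 10 genes: Notch1, Notch2, Notch3, Jag1, Jag2, Hey2 and Nrarp. The windows for Hes1, Hey1 and Heyl were not analysed here. Each was searched on both strands for TGGGAA, the core of the site that RBPJ binds, which reads TTCCCA on the other strand. Of all 32851 promoter windows, 25.6% held it. Of the 7, only the window of Hey2 did. Hey2 and Notch3 are shown because both were found mainly in mural cells while their windows differ in this motif. The Hey2 stretch is chr10:30842781-30843033 on the minus strand, with both matches in capitals. The first match lies on the opposite strand and begins 207 bases before the start, and the second lies on the gene's own strand and crosses the start. The Notch3 stretch is the 250 bases before its start, chr17:32166891-32167140 on the minus strand, with no capitals because it has no match. A match is a run of letters and not a bound site.
Hey2: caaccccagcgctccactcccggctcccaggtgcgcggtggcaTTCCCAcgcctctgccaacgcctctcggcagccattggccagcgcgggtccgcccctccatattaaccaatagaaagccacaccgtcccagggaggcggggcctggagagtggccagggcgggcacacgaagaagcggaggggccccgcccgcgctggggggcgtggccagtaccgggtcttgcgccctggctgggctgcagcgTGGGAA
Notch3: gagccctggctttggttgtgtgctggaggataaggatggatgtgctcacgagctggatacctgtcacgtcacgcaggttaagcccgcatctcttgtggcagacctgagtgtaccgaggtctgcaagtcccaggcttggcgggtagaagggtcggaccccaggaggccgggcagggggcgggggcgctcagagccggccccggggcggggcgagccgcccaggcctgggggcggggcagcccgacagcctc

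Levels are given as CPM, reads of a gene scaled to the same total in each library, so that values compare between libraries of unequal depth. A library is the sum over all cells of 1 mouse and 1 class with at least 10 cells. There were 64 such libraries in 12 classes. Class means pool ages and treatments, which differ between classes. Pericytes had no hyperoxia library. Vascular smooth muscle, airway smooth muscle and myofibroblasts had none of E18.5, and myofibroblasts none of P21. Reads per cell ran from 39358 to 5177020, with a median of 774305. The labels were checked against marker lists. The pericyte list summed to a median of 12740 CPM in pericytes and at most 4717 CPM in any library of the other 5 classes, and the alveolar, adventitial and airway lists were also highest, by median, in their own class. The vascular list had medians of 1328 CPM in vascular and 852 in airway smooth muscle, with overlapping ranges. The myofibroblast list was higher in airway smooth muscle, at a median of 17992 CPM, than in myofibroblasts, at 7135. The libraries of alveolar fibroblasts at E18.5 stood apart. They held 14 cells in the female and 24 in the male, with medians of 1042 and 1232 genes per cell, against 1412 to 5167 in the other 8 alveolar libraries. Epithelial markers summed to 1082 CPM in the female library and 25.9 CPM in the male one. Of the mice in normal air, the 4 males had 1 main sequencing run in common, while each hyperoxia mouse had its own, so run and hyperoxia cannot be told apart.

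Notch3 was the receptor that separated mural cells from all other classes. Its mean level was 481 ± 211 CPM (SD, n = 8) in pericytes and 436 ± 169.6 CPM (SD, n = 8) in vascular smooth muscle. In pericytes the 8 mice had a lowest 269, median 427 and highest 916 CPM, and in vascular smooth muscle a lowest 234, median 425 and highest 769.6 CPM. The next class, adventitial fibroblasts, had 44.1 ± 29.6 CPM (SD, n = 10), and its highest mouse, at 81.5 CPM, lay below the lowest mural library. Alveolar fibroblasts, airway smooth muscle and myofibroblasts had 18.8, 9.10 and 8.82 CPM, and alveolar fibroblasts without the E18.5 libraries 11.7 ± 10.7 CPM (SD, n = 8). Pericytes and vascular smooth muscle did not differ beyond their spread, and neither did any neighbours among the 4 lower classes. Here and below, that means a difference of means no larger than the larger SD. The SDs pool ages and treatment and ignore that classes share mice. Within mice, Notch3 was higher in pericytes than in vascular smooth muscle in 4 of 6. It was higher in adventitial than in alveolar fibroblasts in 8 of 10.

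Notch1, a receptor best known from endothelium and from developing blood cells, was also highest in the mural classes, at a lower level. It reached 202 ± 119 CPM (SD, n = 8) in pericytes and 143 ± 112 CPM (SD, n = 8) in vascular smooth muscle, then 37.3, 31.1 and 29.1 CPM in alveolar, adventitial and myofibroblasts, and 11.2 CPM in airway smooth muscle. The P21 female carried the highest mural values, 441 CPM in pericytes and 406 in vascular smooth muscle, against 117 and 134 in the P21 male. Notch2 differed between the mural classes: it was high in pericytes, at 206 ± 95.9 CPM (SD, n = 8), and not in vascular smooth muscle, at 67.9 ± 55.5 CPM (SD, n = 8). In the remaining 4 classes its means lay between 45.6 and 62.4 CPM, and neighbours in that order did not differ beyond their spread. Within the 6 mice that had both mural classes, Notch2 was higher in pericytes each time, as were 5.77% of all genes with at least 1 CPM. These 6 mice were all in normal air, with Notch2 means of 194 CPM in pericytes and 47.6 in vascular smooth muscle.

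**Figure D1:**
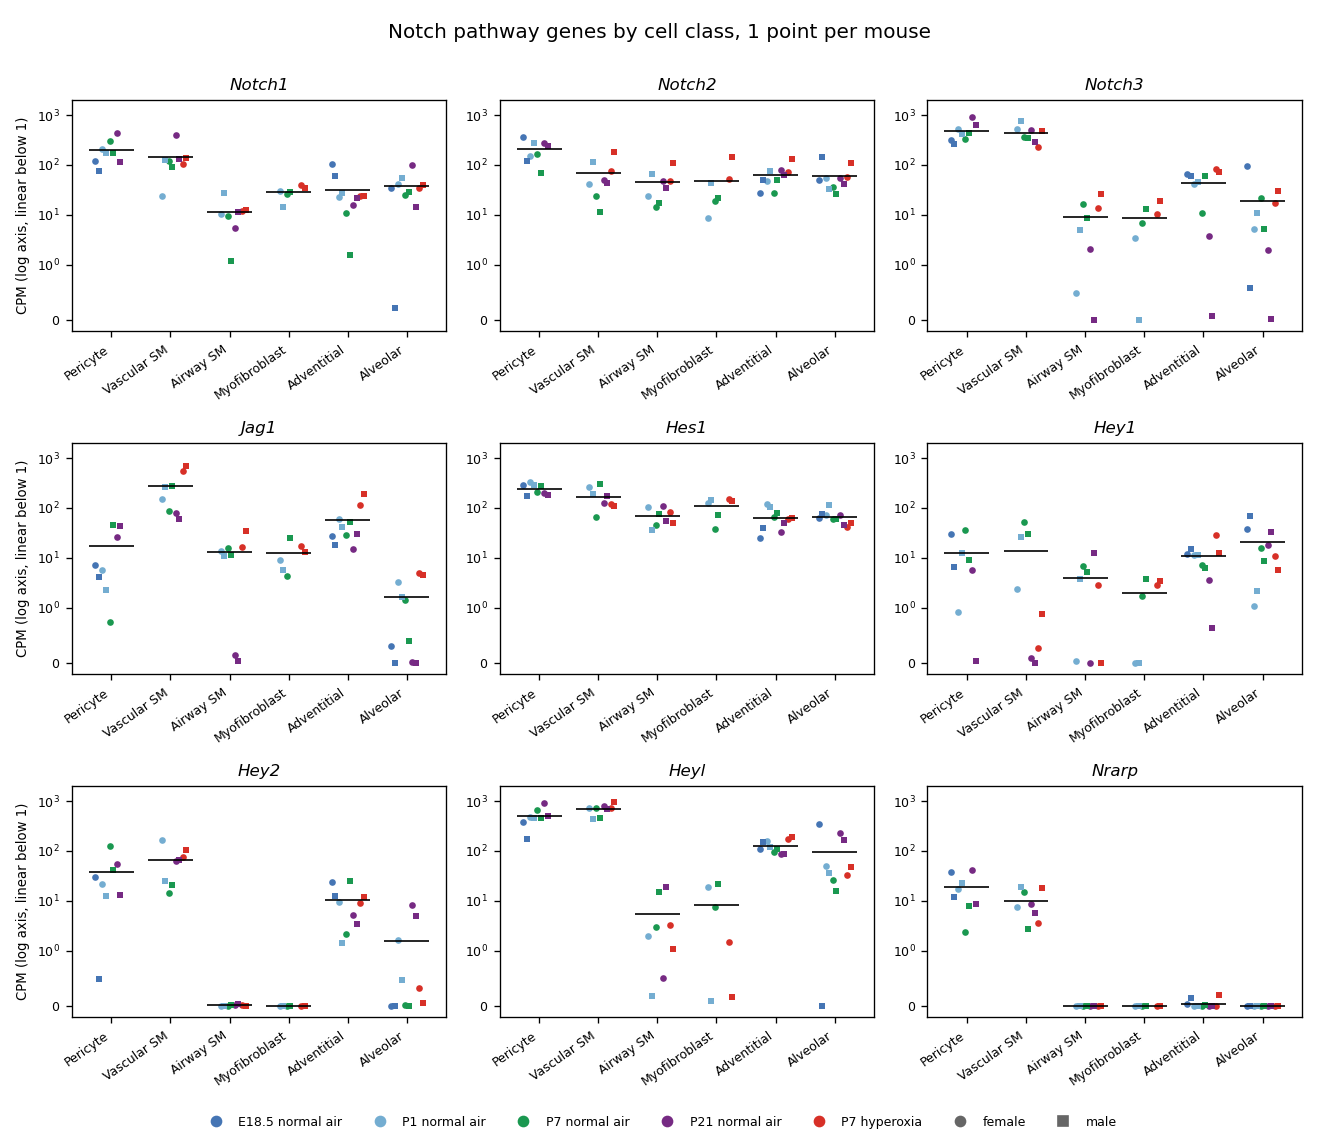
CPM of 9 of the 10 genes (log axis, linear below 1) by cell class, with 1 point per mouse, circles for females and squares for males, colours for age and treatment, and a bar at the mean. Notch3, Heyl and Nrarp sit high in pericytes and vascular smooth muscle, and Jag1 in vascular smooth muscle; Jag2 is not drawn because no class mean reached 1 CPM.

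Jag1, a ligand, was highest in vascular smooth muscle, at 271 ± 238 CPM (SD, n = 8), with a lowest 58.8, median 209 and highest 701 CPM. Adventitial fibroblasts followed at 58.5 ± 55.4 CPM (SD, n = 10), with a lowest 15.4, median 36.4 and highest 193 CPM. Both means include hyperoxia libraries, which averaged 627 CPM in vascular smooth muscle and 154 in adventitial fibroblasts. Pericytes, airway smooth muscle and myofibroblasts had 17.1, 12.9 and 12.4 CPM, and alveolar fibroblasts 1.67 CPM. Jag1 thus divided both pairs of neighbouring classes. In the 6 mice with both mural classes, all in normal air, it averaged 152 CPM in vascular smooth muscle and 20.9 in pericytes. It was higher in vascular smooth muscle than in pericytes in 6 of 6 mice, as were 4.87% of all genes. It was higher in adventitial than in alveolar fibroblasts in 10 of 10 mice, and was the 1 member of 8 at 1 CPM or more that was, beside 4.51% of all genes. Jag2, the other Jagged ligand, was nearly silent: its highest mean in the 6 classes was 0.224 CPM, in pericytes, and vascular smooth muscle had 0 reads in 8 mice.

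Among the targets, Heyl had the highest levels. Vascular smooth muscle had 690.3 ± 168 CPM (SD, n = 8) and pericytes 504 ± 209 CPM (SD, n = 8), which did not differ beyond their spread. Adventitial fibroblasts had 128 ± 37.1 CPM (SD, n = 10) and alveolar fibroblasts 94.8 ± 114 CPM (SD, n = 10), whose libraries ran from 0 to 347 CPM and had 75.1 ± 76.7 CPM (SD, n = 8) without E18.5. Myofibroblasts and airway smooth muscle had 8.27 and 5.47 CPM. The smooth muscle of the vessel wall and that of the airway thus lay far apart, while airway smooth muscle and myofibroblasts did not differ beyond their spread.

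Hes1 was spread more widely. It was 242 ± 57.7 CPM (SD, n = 8) in pericytes, 168 ± 78.1 CPM (SD, n = 8) in vascular smooth muscle and 111 ± 45.4 CPM (SD, n = 6) in myofibroblasts, and between 63.9 and 69.9 CPM in the other 3 classes, with no neighbours in this order apart beyond their spread. Hey2, known from arterial smooth muscle, had 67.0 ± 50.7 CPM (SD, n = 8) in vascular smooth muscle and 37.7 ± 40.2 CPM (SD, n = 8) in pericytes, then 10.5 CPM in adventitial fibroblasts and 1.59 CPM in alveolar fibroblasts. Airway smooth muscle and myofibroblasts held 6 and 2 Hey2 reads in all their cells. Nrarp was restricted further: 18.8 ± 14.4 CPM (SD, n = 8) in pericytes, 10.1 ± 6.51 CPM (SD, n = 8) in vascular smooth muscle and 0.0405 CPM in adventitial fibroblasts. In alveolar fibroblasts, myofibroblasts and airway smooth muscle, 0 of 2780 cells had a Nrarp read, which allows a share of up to 0.108% of cells with a read, by counting error alone and pooled over mice. It is no limit on cells that express the gene, since even in pericytes a median of 29.3% of cells had a read. Hey1 was low throughout, with means from 1.96 CPM in myofibroblasts to 20.4 in alveolar fibroblasts, no neighbours apart beyond their spread, and few cells behind each value. Without the E18.5 libraries, where 1 cell each held all reads, alveolar fibroblasts had 12.1 ± 10.6 CPM (SD, n = 8), below vascular smooth muscle at 13.9 and pericytes at 12.6.

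Comparing classes within a mouse gave the clearest view of the mural pattern. The authors named the classes from the same cells, so these counts are a description with no test. In 8 of 8 mice, vascular smooth muscle lay above airway smooth muscle for 7 of the 9 members with at least 1 CPM (Notch1, Notch3, Jag1, Hes1, Hey2, Heyl and Nrarp), while 2.48% of all genes did so. In 8 of 8 mice, pericytes lay above alveolar fibroblasts for 6 of 9 (Notch1, Notch3, Hes1, Hey2, Heyl and Nrarp), against 4.24% of all genes. Between myofibroblasts and airway smooth muscle, 0 of 7 members kept 1 order in all 6 mice, while 7.66% of all genes were higher in myofibroblasts each time and 5.38% in airway smooth muscle.

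Because genes differ in length, levels were compared between genes per kilobase of merged GENCODE M21 exons. On that scale pericytes had 119 CPM per kilobase of Hes1, 98.5 of Heyl, 59.5 of Notch3, 19.1 of Notch2 and 14.2 of Notch1. Vascular smooth muscle had 135 of Heyl, 82.5 of Hes1, 53.9 of Notch3, 46.5 of Jag1, 10.1 of Notch1 and 6.29 of Notch2. Notch3 was thus the most abundant of the 3 receptors in both mural classes. In alveolar fibroblasts Notch2 led the receptors with 5.58 CPM per kilobase, ahead of Notch1 at 2.62 and Notch3 at 2.32.

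Counting cells gave a like division for Notch3 and Heyl, with adventitial fibroblasts between mural cells and airway smooth muscle. After thinning each cell to 100000 reads, which left out 168 shallower cells, the median mouse had a Notch3 read in 79.3% of pericytes and 76.1% of vascular smooth muscle cells, against 3.86% of airway smooth muscle cells. Without thinning these shares were 83.2%, 82.8% and 7.17%. Heyl reads were found in 69.0%, 77.9% and 3.27% of the same cells after thinning. Thinned adventitial fibroblasts had a Notch3 read in 33.7% and a Heyl read in 35.2%. Hes1 did not divide the classes this way, with a read in 74.6% of pericytes, 69.9% of vascular smooth muscle cells and 69.5% of myofibroblasts. Jag1 reads were found in 79.9% of vascular smooth muscle cells, 15.1% of pericytes, 34.4% of adventitial and 1.68% of alveolar fibroblasts.

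Receptor, target and ligand also met in single cells. Before thinning, both Notch3 and Heyl had a read in a median of 68.5% of vascular smooth muscle cells and 64.6% of pericytes, 20.7% of adventitial and 3.44% of alveolar fibroblasts. All 3 of Notch3, Heyl and Jag1 had a read in a median of 57.2% of vascular smooth muscle cells, 15.7% of adventitial fibroblasts and 13.8% of pericytes. These shares depend on depth as well as on expression, and on how often each gene is found by itself. They were not compared with the shares expected from each gene alone, so they show no link between the genes within cells.

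**Figure D2:**
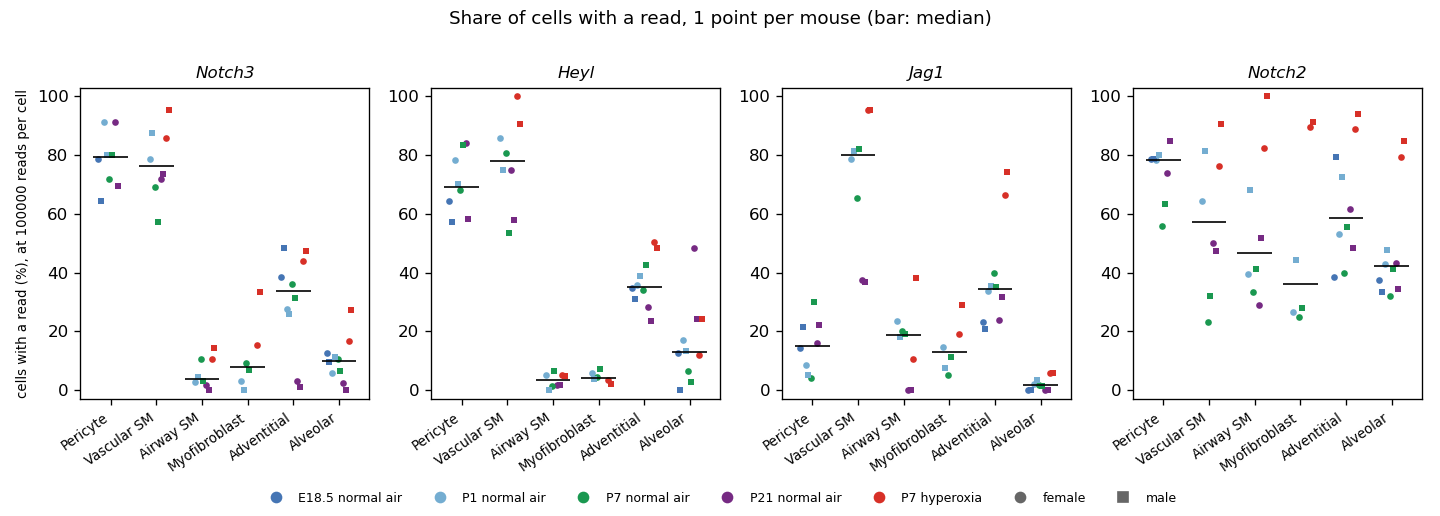
Share of cells with at least 1 read after thinning to 100000 reads per cell (vertical axis, percent), by class, with 1 point per mouse, colours for age and treatment and a bar at the median. Notch3 and Heyl are found in most mural cells, Jag1 in most vascular smooth muscle cells, and the hyperoxia points of Notch2 (red) stand above the P7 points in normal air (green) in each of 5 classes.

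Endothelial cells also express Notch genes, so their markers were checked in the mural libraries. Of the 14 endothelial markers, Tie1 had a mean of 0 CPM in pericytes and Cdh5 0.0670 CPM, with Pecam1 at 4.69 CPM. In vascular smooth muscle Tie1 had 0.044, Cdh5 2.43 and Pecam1 14.9 CPM. The summed list ran from 503 to 1549 CPM in pericytes and from 111 to 356 CPM in vascular smooth muscle. Most of it was Eng and Ramp2, with means of 643 and 93.3 CPM in pericytes and 139 and 74.2 CPM in vascular smooth muscle.

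The classes seen at few ages are given next. At E18.5, fibroblast precursors had Notch1 at 66.2 and 73.7 CPM, Notch3 at 23.2 and 11.4 CPM and Heyl at 25.5 and 22.1 CPM in the female and male. The precursors of myofibroblasts and smooth muscle had 7.23 and 14.3, 5.49 and 5.71 and 4.00 and 9.28 CPM, so all 3 genes were lower there in both mice, and Jag1 was higher, at 9.45 and 9.07 against 0.900 and 1.88 CPM. Proliferating fibroblasts had 62.3 ± 31.9 CPM (SD, n = 5) of Notch3, above the 16.0 ± 11.5 CPM (SD, n = 3) of proliferating myofibroblasts. Fibroblasts that the authors named after male hyperoxic mice, found in 1 library, had 108 CPM of Notch2 and 9.34 CPM of Notch3. Striated muscle cells, in 1 library of 16 cells, had 0 reads of Notch1, Notch2 and Jag1.

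For each member with a class mean of at least 50 CPM, the genes most alike across the 34 means of class and group were listed by Pearson's r of log2(CPM + 1), as a description, since the points share mice and libraries. Notch3 was most like Sh2d3c, Arhgef6 and Trarg1 (r = 0.880, 0.836 and 0.816). Heyl was most like Cbfa2t3, Foxs1 and Arhgef6 (r = 0.882, 0.858 and 0.857), Hes1 like Cox4i2, Gucy1a1 and Itga1 (r = 0.828, 0.817 and 0.817), and Hey2 like Tnfrsf11b, Htra4 and Rflna (r = 0.863, 0.859 and 0.848). Cox4i2 and Gucy1a1 belong to the list of pericyte markers. Jag1 was most like Slc9a3r1, Tm4sf1 and Gmds (r = 0.795, 0.795 and 0.773). Notch1 was most like Btbd3, Tiparp and Pear1 (r = 0.828, 0.826 and 0.823), and Notch2 like Marcks, Ssr3 and Sp1 (r = 0.849, 0.832 and 0.831).

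A list of 48 other genes of the pathway was measured beside the members. Its shared machinery was present in every class. Rbpj, the DNA-binding partner, named although below 50 CPM, had means from 11.3 CPM in pericytes to 37.9 CPM in adventitial fibroblasts. Ncstn, a subunit of gamma-secretase, which cuts the receptor, had 108 to 211 CPM. The protease Adam10 had 52.4 to 122 CPM. Altogether 16 of the 48 reached 50 CPM in at least 1 class, among them also Adam17, Crebbp, Ctbp1, Ctbp2, Dtx3, Dtx4, Ep300, Fbxw7, Itch, Maml2, Maml3, Poglut1 and Snw1. Below 5 CPM in all 6 classes were 10, named for their low levels after their values were seen: the ligands Dll1, Dll3, Dll4, Dlk1 and Dlk2, the glycosyltransferases Lfng and Mfng, and Dtx1, Hes5 and Hes7.

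Also outside the naming rule, 3 genes of the list are given because of their class pattern, seen in the values. The receptor Notch4 had 30.3 ± 30.7 CPM (SD, n = 8) in pericytes and at most 3.73 CPM in the other 5 classes. The ubiquitin ligase Neurl1b had 42.5 CPM in pericytes and 32.8 in vascular smooth muscle, against 7.22 CPM or less elsewhere. Dner, a membrane protein described as a Notch ligand, had 47.3 ± 39.8 CPM (SD, n = 10) in adventitial fibroblasts and at most 0.287 CPM in the others.

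Neighbouring ages in normal air were compared in 14 contrasts, with summed reads, edgeR's quasi-likelihood test, terms for group and sex, and Benjamini-Hochberg adjustment over all genes. A gene was called at an adjusted p under 0.05. Each group is 1 female and 1 male. The p-values rest on the spread left between mice after the terms for group and sex, pooled over all groups of a class. Of 120 tests of members, 1 was called, against 0.617% of all tests, and 16 had an unadjusted p under 0.05, against 7.65% of all tests.

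In pericytes 0 of 9 members were called from E18.5 to P1, from P1 to P7 or from P7 to P21, where edgeR called 0.042%, 0.0% and 0.0504% of all genes. At E18.5 Notch3 had 322 and 269 CPM, followed by 532 and 415 in P1 mice, 331 and 439.8 in P7 mice and 916 and 626 in P21 mice, in the female and male. Both P21 mice were above all 6 younger ones, with a log2 fold change of 1.01 (SE 0.50, edgeR adjusted p = 0.955) from P7. Heyl had 384 and 171, 484 and 465, 660.1 and 459.5 and 895 and 509 CPM at these ages, which overlap between neighbouring groups except from E18.5 to P1. The endothelial markers summed highest in the same P21 pericytes, at 1549 and 1091 CPM, and their part in the Notch3 level was not tested. The members' median log2 fold change was 0.39, 0.21 and 0.33 over the 3 steps, beside 0.07, 0.03 and 0.20 over all genes.

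In vascular smooth muscle 0 of 9 members were called, from P1 to P7 (0.0% of all genes) or from P7 to P21 (0.0886%). Notch3 had 518 and 769.6 CPM at P1, 364 and 339 at P7 and 490.3 and 285 at P21. Jag1 had 151 and 266, 87.9 and 272 and 77.6 and 58.8 CPM, the P21 mice lying below the 4 younger ones, with a log2 fold change of -1.08 (SE 0.63, edgeR adjusted p = 0.750) from P7. Its share of cells with a read was also lower at P21, at 37.5% and 36.8% of thinned cells, against 65.4% and 82.1% at P7. The members' median was -0.40 and then 0.31 on the log2 scale, beside 0.13 and -0.09 over all genes.

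**Figure D3:**
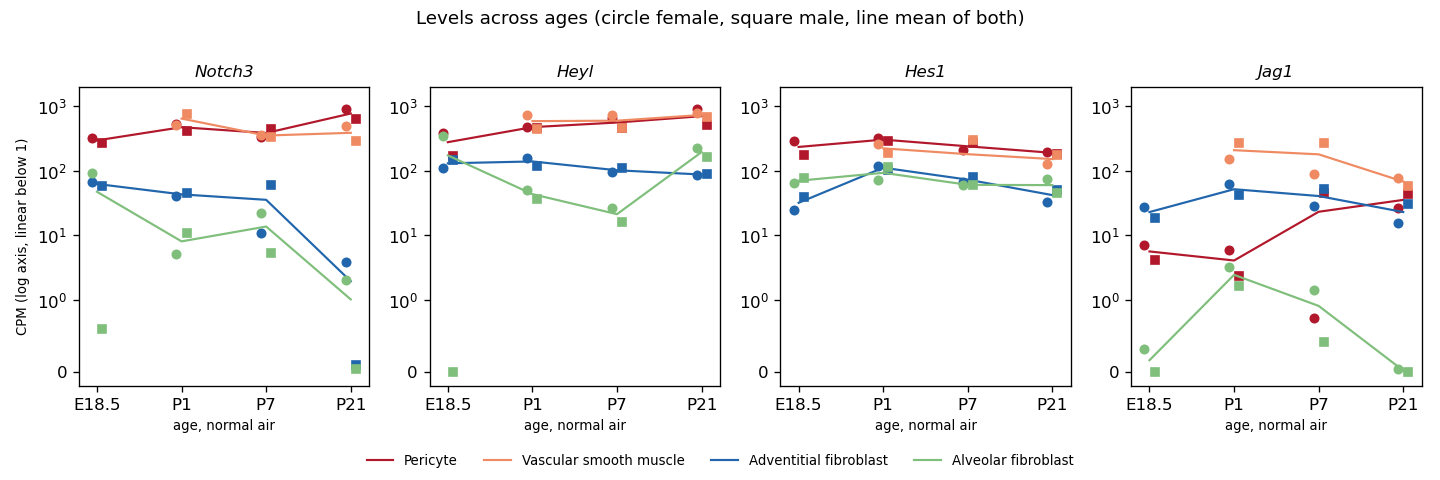
CPM (log axis, linear below 1) of Notch3, Heyl, Hes1 and Jag1 at 4 ages in normal air, with circles for females, squares for males and lines through the mean of both. The mural lines of Notch3 and Heyl stay above the fibroblast lines at P1, P7 and P21, the Notch3 line of adventitial fibroblasts is lowest at P21, and the Heyl line of alveolar fibroblasts is lowest at P7.

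Alveolar fibroblasts, which lie next to the gas-exchanging epithelium, gave the clearest pattern by age for Heyl. It had 51.1 and 36.0 CPM at P1, 26.5 and 16.1 at P7 and 227 and 163 at P21 in the female and male, so both P21 mice were above all 4 at P1 and P7. Thinned cells with a Heyl read made up 6.67% and 2.90% at P7, and 48.3% and 24.3% at P21. From P7 to P21, with 0.0702% of all genes called, 0 of 9 members were called, and Heyl had a log2 fold change of 3.56 (SE 2.17, edgeR adjusted p = 0.776). That fit holds the E18.5 libraries, in which all Heyl reads of the female came from 1 cell (347 CPM) and the male had 0. With a minimum of 20 cells the female library drops out, and the male with it, since a group needed both mice. Without both, edgeR called Heyl higher at P21 (log2 fold change 3.51, edgeR adjusted p = 0.0112), with 1.1% of all genes. The males of P7 and P21 shared a main run and had 16.1 and 163 CPM.

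Notch3 went the other way in the same cells, with 22.1 and 5.34 CPM at P7 and 2.01 and 0.0330 at P21, a log2 fold change of -4.20 (SE 2.19, edgeR adjusted p = 0.747), and without the E18.5 libraries a log2 fold change of -3.75 (SE 1.59, edgeR adjusted p = 0.276). Hey2 had 0.0264 and 0 CPM at P7 and 8.25 and 5.04 at P21 (edgeR adjusted p = 0.474, and 0.0876 without the E18.5 libraries). A fit over all classes together, which takes libraries of 1 mouse as independent, called it (edgeR adjusted p = 0.0383, with 0.318% of all genes), yet in the P21 male all its reads came from 1 cell of 74. From P1 to P7, with 0.0% of all genes called, 0 of 9 members were called. The members' median was -0.94 from P1 to P7 and 0.92 from P7 to P21 on the log2 scale, beside -0.05 and -0.04 over all genes.

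The 1 member called between ages was Hey1 in alveolar fibroblasts from E18.5 to P1, with 38.4 and 69.0 CPM and then 1.09 and 2.13, a log2 fold change of -5.15 (SE 1.23, edgeR adjusted p = 0.04997). In each of the 2 E18.5 libraries all Hey1 reads came from 1 cell. edgeR called 6.16% of all genes in this contrast, with a median log2 fold change of 1.36 over all genes and 0.34 over the 9 members tested. Without the E18.5 female the call held (edgeR adjusted p = 0.00391), and without the E18.5 male too (edgeR adjusted p = 0.0328), each then resting on 1 cell. It was lost when the 2 P1 mice or the other mice were left out in turn, with edgeR adjusted p from 0.0690 to 0.334. With neither E18.5 library the contrast has no value.

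In adventitial fibroblasts 0 of 9 members were called between ages, beside 0.17% of all genes from E18.5 to P1, 0.0% from P1 to P7 and 0.124% from P7 to P21. At E18.5 Notch3 had 66.4 and 58.8 CPM, followed by 41.5 and 44.9 in P1 mice, 11.0 and 60.1 in P7 mice and 3.81 and 0.0871 in P21 mice. Both P21 mice were below all 6 younger ones, with a log2 fold change of -4.28 (SE 1.45, edgeR adjusted p = 0.403). Hes1 had 25.1 and 38.9 CPM at E18.5 and 119.7 and 104 at P1, a log2 fold change of 1.83 (SE 0.44, edgeR adjusted p = 0.218), and the pairs did not overlap. Heyl, by contrast, had 112 and 149.6, 159.6 and 119.7, 95.3 and 109 and 86.7 and 88.4 CPM over the 4 ages. Adventitial fibroblasts had 86.7 CPM of Heyl or more at every age, while Notch3 was below 4 CPM at P21. The members' median was -0.29, -0.35 and -0.64 over the 3 steps on the log2 scale, beside 0.16, -0.07 and 0.10 over all genes.

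In airway smooth muscle 0 of 7 members were called from P1 to P7 (0.0% of all genes) or from P7 to P21 (1.13%). Jag1 had 13.5 and 10.7 CPM at P1, 16.0 and 11.5 at P7 and 0.148 and 0.0414 at P21, a log2 fold change of -6.83 (SE 1.79, edgeR adjusted p = 0.164). The fit over all classes together, in which several libraries come from the same mouse, called Jag1 lower at P21 (log2 fold change -6.77, edgeR adjusted p = 0.00824), with 0.599% of all genes. In thinned cells, Jag1 reads were found in 20.0% and 19.0% at P7 and in 0% and 0% at P21. In myofibroblasts, measured at P1 and P7 alone, 0 of 7 members were called, beside 0.0% of all genes. There Hes1 had 124 and 146 CPM at P1 and 37.3 and 73.4 at P7, a log2 fold change of -1.39 (SE 0.39, edgeR adjusted p = 0.581). The members' median was 0.13 and 0.34 in airway smooth muscle and 0.72 in myofibroblasts on the log2 scale, beside 0.13, -0.09 and 0.18 over all genes.

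Among the other 48 genes, 3 of 560 tests between ages were called, near the 0.617% of all tests, all higher and all in alveolar fibroblasts from E18.5 to P1. Rfng, a glycosyltransferase of the Fringe family, was listed at 0 in both E18.5 libraries and at 43.0 and 50.1 CPM at P1. Numbl, related to the Notch inhibitor Numb, was at 0 and then at 11.7 and 16.1 CPM. Dtx4, a ubiquitin ligase, went from 0.320 and 0.147 to 30.8 and 28.1 CPM. These calls rest on the same E18.5 libraries of few genes per cell, and without both of them they have no value.

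Hyperoxia injures the growing lung, and P7 mice kept in it were compared with P7 mice in normal air in 5 classes, pericytes having too few cells there. edgeR called 0.0% of genes in each class and 0 of 41 members, and at an unadjusted p under 0.05 there were 8 of the 41, against 4.59% of all tests. The classes share the same 4 mice, so these are not independent.

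Notch2 was higher in both hyperoxia mice in each of the 5 classes compared, though no class passed the test. In normal air it had 35.7 and 26.6 CPM in alveolar fibroblasts of the female and male, and in hyperoxia 57.1 and 107. In adventitial fibroblasts it had 27.4 and 50.2 and then 72.3 and 131 CPM, and in myofibroblasts 19.4 and 21.4 and then 52.3 and 146. In airway smooth muscle it had 14.1 and 17.3 and then 48.8 and 111 CPM, and in vascular smooth muscle 24.3 and 11.3 and then 77.2 and 180.2. Both hyperoxia mice lay above both others in all 5 classes, which no other member did and 2.24% of all genes at 1 CPM or more in every class did. The log2 fold changes were 1.19 (SE 0.84), 1.21 (SE 0.45), 1.94 (SE 0.68), 2.25 (SE 0.74) and 2.51 (SE 1.09) in this order of classes. The edgeR adjusted p was 0.621 in adventitial fibroblasts, 0.745 in myofibroblasts and 1 in the other 3. Without the P1 male, a fit that left 1 mouse at P1, the myofibroblast log2 fold change was 2.00. Proliferating fibroblasts, too few for the test, had 82.3 CPM in the 1 library in normal air and 67.0 and 135 in hyperoxia, so 1 hyperoxia mouse lay below.

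More cells held a Notch2 read as well. At 100000 reads per cell, the share was 23.1% to 55.6% over the 10 libraries in normal air and 76.2% to 100% over the 10 in hyperoxia, and without thinning 37.0% to 82.1% and 84.9% to 100%. Cells of the hyperoxia mice also held more genes in all. Their median genes per cell ran from 3755 to 6609 over these libraries, against 2018 to 3773 in normal air, and from 3336 to 5314 against 1571 to 3170 after thinning. The part of this difference in the Notch2 levels was not tested.

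Jag1 and Notch1 were each above in 4 of the 5 classes. The share of all genes above in 4 classes was not counted. In single classes it ran from 17.4% in airway smooth muscle to 30.4% in adventitial fibroblasts. In vascular smooth muscle Jag1 had 87.9 and 272 CPM in normal air and 554 and 701 in hyperoxia, a log2 fold change of 1.67 (SE 0.63, edgeR adjusted p = 1). In adventitial fibroblasts it had 28.4 and 53.0 and then 115 and 193 CPM, a log2 fold change of 1.75 (SE 0.57, edgeR adjusted p = 0.621). The hyperoxia mice were above both others in alveolar fibroblasts and airway smooth muscle too, at 4.97 and 4.62 against 1.42 and 0.411 CPM and at 16.6 and 35.1 against 16.0 and 11.5. In myofibroblasts the 4 values overlapped. Notch1 was above in all but vascular smooth muscle, and had in adventitial fibroblasts 10.8 and 1.59 and then 24.0 and 23.6 CPM. Notch3 was above in adventitial fibroblasts alone, with 11.0 and 60.1 and then 81.5 and 72.9 CPM.

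**Figure D4:**
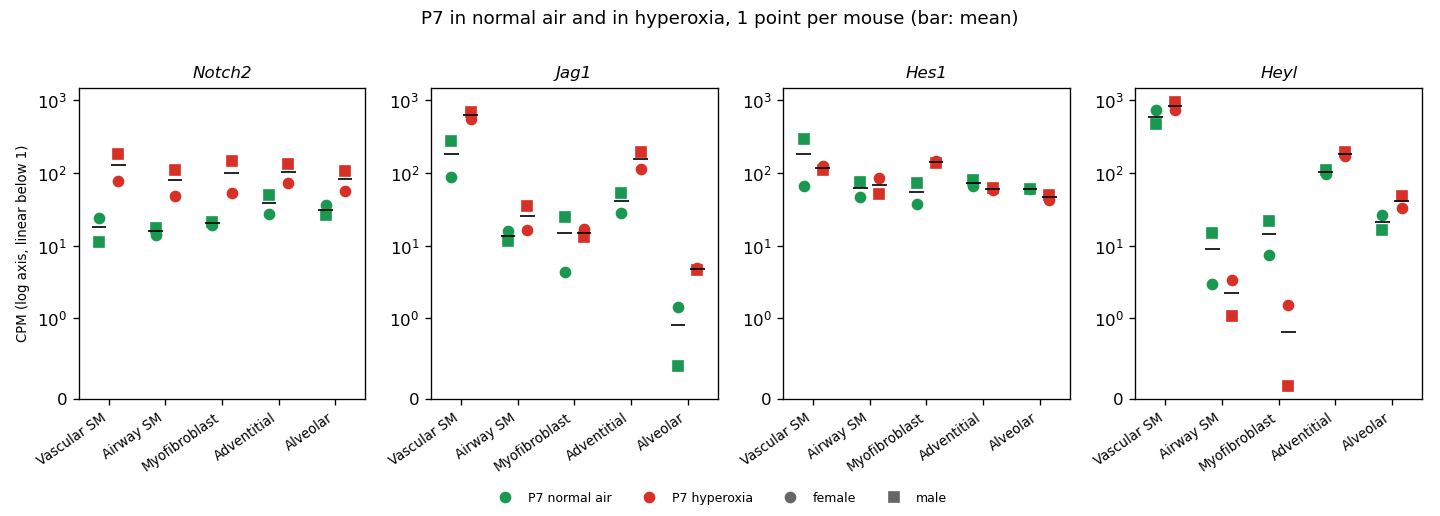
CPM (log axis, linear below 1) of Notch2, Jag1, Hes1 and Heyl in 5 classes at P7, green for normal air and red for hyperoxia, with 1 point per mouse and a bar at the mean. The red points of Notch2 lie above the green in all 5 classes, while Heyl in myofibroblasts and Hes1 in alveolar and adventitial fibroblasts lie below.

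Counted over members with at least 1 CPM, both hyperoxia mice were above both others for 4 of 7 in alveolar fibroblasts (27.1% of all genes), 6 of 8 in adventitial fibroblasts (30.4%), 3 of 7 in myofibroblasts (24.4%), 3 of 7 in airway smooth muscle (17.4%) and 4 of 9 in vascular smooth muscle (22.8%). With groups of 2, such an order was common in the table at large. Both hyperoxia mice lay below both others for 1 member in each of these classes, and the share of all genes below is not given here. The members' median log2 fold change was 1.19, 1.21, 0.39, 0.69 and -0.04 in these classes, beside 0.06, 0.12, -0.01, -0.06 and -0.01 over all genes. Of the other 48 genes, 0 of 202 tests were called. Furin, which trims the receptor on its way to the surface, Aph1a, a subunit of gamma-secretase, and the coactivator Crebbp were among the genes of the list that were, like Notch2, above in all 5 classes, and are named for that, after their values were seen. Other genes of the list went the other way in some classes, also named after their values were seen. Psenen was below in both hyperoxia mice in alveolar fibroblasts, adventitial fibroblasts and myofibroblasts. Ep300 was below in adventitial fibroblasts, myofibroblasts and airway smooth muscle.

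The values of Hes1 and Heyl pointed in different directions between classes, with 0 called. The test of a difference between classes, given further below, called neither gene. Hes1 had 37.3 and 73.4 CPM in myofibroblasts in normal air and 148 and 137 in hyperoxia, a log2 fold change of 1.41 (SE 0.40, edgeR adjusted p = 0.610). It was lower in both hyperoxia mice in alveolar fibroblasts, at 42.0 and 49.9 against 60.9 and 60.4 CPM. In adventitial fibroblasts it was also lower, at 59.2 and 62.1 against 66.2 and 79.8 CPM. The share of all genes lying below in both mice is not given here. Heyl had the opposite arrangement. It was lower in myofibroblasts, at 1.51 and 0.161 against 7.47 and 21.7 CPM, and higher in alveolar fibroblasts, at 33.1 and 47.8 against 26.5 and 16.1, and in adventitial fibroblasts, at 170.0 and 192 against 95.3 and 109. The myofibroblast values rest on few cells. Before thinning, 5.172% and 6.667% of 58 and 45 myofibroblasts had a Heyl read in hyperoxia. In normal air the shares were much the same, at 5.161% and 7.065%. In vascular smooth muscle Hey2 had 14.3 and 20.7 and then 77.1 and 104 CPM, and Hey1 51.4 and 29.9 and then 0.285 and 0.897, with at most 5 cells behind any of these Hey1 values.

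Whether the hyperoxia difference itself varied between classes was tested with edgeR for 10 pairs of classes, with the mouse as a block. Of 83 tests of members 0 were called, and 12 had an unadjusted p under 0.05, against 5.13% of all tests. The pairs share classes and mice, so these tests are not independent. Most of the 12 were Hes1 or Heyl in pairs with myofibroblasts, or Hey1 in pairs with vascular smooth muscle. The 12 are thus no count of separate differences. For Hes1 in myofibroblasts against alveolar fibroblasts the log2 difference of 1.89 (SE 0.42, edgeR adjusted p = 0.610) pointed to a larger value in myofibroblasts. For Heyl against adventitial fibroblasts the log2 difference of -5.23 (SE 1.17, edgeR adjusted p = 0.535) pointed to a smaller one. Over all genes edgeR called 0.013% for alveolar fibroblasts and myofibroblasts, 0.0132% for alveolar fibroblasts and airway smooth muscle, 0.00728% for myofibroblasts and vascular smooth muscle, 0.00747% for the smooth muscles and 0.0% in the other 6 pairs. The opposite directions of Hes1 and Heyl between these classes were thus not shown to differ.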

How the data were processed

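Single cells of the mesenchyme of distal mouse lung were sorted into plates and sequenced without molecular identifiers. The deposited values are read counts per gene and cell. Per the submitters' processing notes, the authors used STAR 2.5.2b and HTSeq 0.10 and named the genome build GRCh38, a human build, although the labels give mouse; the annotation is not given in the sources used here. Overlapping and near-identical genes may share reads. Counts were summed per mouse and class (at least 10 cells), with classes from the authors' subtype labels, and tested with edgeR 4.0.16 in R 4.3.3 (quasi-likelihood, TMM, low-count filter, group and sex, Benjamini-Hochberg over all genes, 0.05). Scripts were tested on simulated data. The mouse is the replicate; intervals and limits on shares cover counting error only. Members, lists and tests were chosen with earlier results of these data known. Named genes are the 10 members, the 3 genes most like each member with a class mean of at least 50 CPM, and list genes that were called or reached 50 CPM; others are said to be named after their values were seen. Alternatives included DESeq2 1.42.0, other filters, scalings and cell minimums, and leaving out each mouse; those on the difference between classes, and levels without the E18.5 alveolar libraries, were chosen after seeing the data. Some results for genes of the pathway list are not reported here.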

Additional observations from a re-analysis of the deposited data

How the results depend on the processing

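Between ages, edgeR called 1 member, Hey1 in alveolar fibroblasts, beside 0.617% of all tests. Hey1 was also the 1 call with median-of-ratios size factors (0.535% of all tests) and with no sex term (0.931%). With only the 4 mice of a contrast (0.165%), or at least 20 cells (0.266%), the 1 call was Heyl in alveolar fibroblasts from P7 to P21. DESeq2 called 13, beside 6.19% of all tests. No filter on low counts gave 0 (0.581%), 1 fit over all classes gave 2 (0.732%), and keeping only the mesenchymal sort and main run gave 0 (0.595%). Leaving out each mouse gave 0 to 5, the highest without the E18.5 female (2.6%) and 3 without the E18.5 male (1.35%). In hyperoxia edgeR called 0 and DESeq2 called 2 (1.92%), namely Heyl in myofibroblasts and Hey1 in vascular smooth muscle. For the difference of the hyperoxia response between classes, tested in pairs that share classes and mice, edgeR called 0 and DESeq2 called 8 (2.9%). For both, counts with a mouse left out are not given, since such fits leave 1 mouse in a group. The causes were not tested. Of the 9 members at 1 CPM or more, 8 had their highest class mean in a mural class, as did 37.2% of all genes; Jag2, below 1 CPM, made it 9 of 10. The count was 8 of 10 by the mean of per-cell CPM, 8 to 9 with a mouse left out, and 10 of 10 without the E18.5 alveolar libraries, a setting chosen after seeing the data. Of 130 level settings, 129 stayed within 1 SD, and no direction reversed. Most of the 130 left out 1 mouse, which cannot move a class mean by 1 SD. Those settings could not have failed, so the count of 129 is no measure of robustness. No paired analysis was possible because the mice of different groups are different animals whose labels share no replicate number; the mouse was a block only where classes of the same mice were compared. Groups of 2 mice, libraries of few cells, and 1 run for each hyperoxia mouse limit these results.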
